A study of Mus musculus with 10 samples.

Results

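The neurotrophins, the ligands of the glial cell line-derived family and the receptors that bind them were examined in the mouse optic nerve head, where the axons of retinal ganglion cells exit the globe. The genes were Ngfr, Ntrk2, Ntrk3, Gfra1, Cntfr, Bdnf, Gdnf and Ntf3, chosen by an exact match of the gene symbol in the probe annotation. Of the 8 names, 7 matched, on 16 of the 22626 probe sets that are not array controls. Ntf3 was not analysed here.

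The high IOP group was 5 arrays of nerve heads from right eyes that had been held at a raised intraocular pressure (IOP) of 30 mmHg for 1 h, through a saline-filled cannula in the anterior chamber, and left for 3 days. The control group was 5 arrays of nerve heads from the left eyes, which had not been operated on. All animals were male C57Bl/6 mice of 6 to 8 weeks, and each array held RNA pooled from 2 nerve heads. The labels do not match left eyes to right eyes of the same mice. Eyes of the same mice may be in both groups, and the arrays would then not be independent. The main limma and permutation tests treated the 10 arrays as unpaired. Raised pressure, cannulation and the side of the body cannot be told apart in this design.

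Neurotrophins signal through the Trk receptor tyrosine kinases, with TrkB, encoded by Ntrk2, as the receptor for BDNF and TrkC, encoded by Ntrk3, as the receptor for neurotrophin 3. The p75 receptor encoded by Ngfr binds all mature neurotrophins and also their unprocessed precursors. GDNF binds the membrane-anchored receptor GFRA1, which presents it to the kinase RET, and ciliary neurotrophic factor binds CNTFR, which joins the gp130 and LIF receptors. Retinal ganglion cells take up BDNF at their targets in the brain and carry it back along the optic nerve, and the glia of the nerve express several of these receptors.

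The pools gave strong signals for genes of astrocytes and of myelin. From which part of the nerve the myelin RNA came was not tested. Gfap, the intermediate filament gene of astrocytes, averaged 11579 ± 726 in high IOP tissue and 11340 ± 492 in control tissue, and the myelin gene Mbp averaged 14056 ± 409 in high IOP tissue and 14355 ± 806 in control tissue (SD, n = 5 each). High IOP replicate 1 stood apart. Its correlation with the other 9 arrays averaged 0.974, where every other array had at least 0.986, and its Gapdh ratio (3' over 5' control probe sets, a measure of RNA integrity) was 2.07. The ratio also went with the group: the other high IOP arrays had 1.58 to 1.73, and the control arrays 1.53 to 1.59, so that 4 of the 5 high IOP arrays lay above every control array. The summed signal of 7 measured oligodendrocyte markers ran from 39062 to 58494 on high IOP arrays, with the lowest on replicate 1, and from 48537 to 63917 on control arrays. No marker was at 0. The myelin genes Mag and Mog averaged 1921 ± 729 and 5010 ± 1997 in high IOP tissue and 2737 ± 1138 and 6251 ± 1532 in control tissue. Genes of pigment cells and photoreceptors also gave signals. The pigment cell gene Dct averaged 5564 ± 1092 in high IOP and 5782 ± 2369 in control tissue. The summed signal of the photoreceptor markers ran from 2006 to 9034 on high IOP arrays and from 1529 to 8894 on control arrays. Median signals of the arrays lay between 414 and 475, and precision is limited by there being 5 arrays a group. Fewer cells of a type and less RNA per cell cannot be told apart in these pools.

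The question was whether trophic genes had other levels in nerve heads exposed to a brief rise of pressure. None of the 16 probe sets passed the limma test at an adjusted p under 0.05, and the share called among all 22626 probe sets was 0%. The adjusted p of the 16 ran from 0.837 to 0.996. Before adjustment, 2 of the 16 had a p under 0.05, against 4.44% of all probe sets (1004 of 22626). These were 1 probe set of Gfra1, with lower signals after raised pressure, and 1 of Ngfr, with higher signals. Another probe set of Gfra1 had the opposite sign, and another of Ngfr was near 0. The groups overlapped for all 16, while 0.663% of all probe sets had groups that did not overlap. Of the 16 log2 fold changes 7 were positive and 9 negative, with a median of -0.04. Of all probe sets 45.3% were positive, with a median of -0.02. For 11 of the 16 the whole 95% confidence interval was inside 1.5-fold either way, as it was for 75.8% of all probe sets, and for 14 of the 16 it was inside 2-fold. Fold changes here are differences of log2(signal + 16), a scale that understates the change of dim probe sets.

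**Figure D1:**
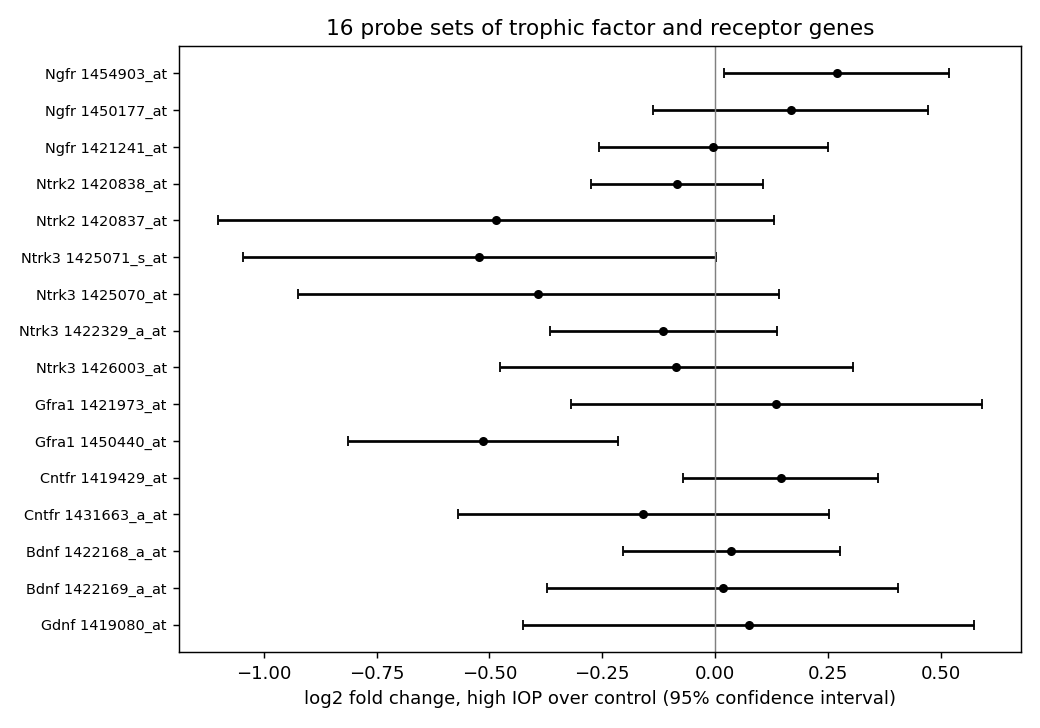
Log2 fold change of high IOP over control (x axis) for each of the 16 probe sets (y axis), with points for the limma estimate and bars for the 95% confidence interval from 10 arrays. The intervals of Ngfr 1454903_at and Gfra1 1450440_at leave out 0, on opposite sides, and none of the 16 passed the test after adjustment.

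Ngfr encodes the p75 neurotrophin receptor, found on Schwann cells, on perivascular and leptomeningeal cells and on some injured neurons and glia. Its brightest probe set, 1454903_at, had signals of 3040, 2117, 2292, 2493 and 2191 on high IOP arrays 1 to 5 and of 1952, 2022, 1845, 1858 and 2320 on control arrays 1 to 5. All 5 high IOP arrays lay above the control median, 2 lay above every control array, and control replicate 5 reached into the high IOP range. The mean signal was 2426 ± 371 in high IOP tissue and 1999 ± 193 in control tissue (SD, n = 5 each). The log2 fold change was 0.27 (SE 0.113), with a 95% interval from 0.02 to 0.52 and a limma adjusted p of 0.837. The unadjusted limma p was 0.0362 and the two-sided exact permutation p over the 252 splits of the arrays was 0.0397, where the smallest p possible is 0.00794.

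High IOP replicate 1, the array that stood apart, gave the highest Ngfr signal of the 10. Without it the log2 fold change was 0.19 (limma unadjusted p 0.0718, adjusted p 1). It was 0.12 with the Gapdh ratio as a covariate and 0.15 with the oligodendrocyte score as a covariate. The other Ngfr probe sets were dim. Probe set 1450177_at averaged 70.8 ± 12.9 in high IOP tissue and 61.2 ± 11.5 in control tissue, a log2 fold change of 0.17 with an interval from -0.14 to 0.47. Probe set 1421241_at averaged 39.2 ± 6.00 in high IOP tissue and 39.6 ± 7.65 in control tissue, a log2 fold change of -0.00 with an interval from -0.26 to 0.25, whose sign turned with the scaling. Both dim probe sets carry the same source sequence in the annotation, and the bright one carries another.

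The 250 bases before the annotated start of Ngfr are shown because Ngfr had the brightest probe set with an unadjusted p under 0.05. They lie at chr11:95587699-95587948 on the minus strand of GRCm38.p6 (RefSeq), and capitals mark the GC box GGGCGG or its reverse complement CCGCCC, which is a binding motif of the Sp1 family.
Ngfr: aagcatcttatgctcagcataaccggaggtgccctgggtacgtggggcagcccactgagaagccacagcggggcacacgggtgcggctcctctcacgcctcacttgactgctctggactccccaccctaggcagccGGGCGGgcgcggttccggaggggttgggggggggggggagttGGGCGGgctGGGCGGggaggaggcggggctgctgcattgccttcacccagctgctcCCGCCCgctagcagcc
The window holds 4 GC boxes that do not overlap, on both strands. At least 1 was found in 32.7% of the 32851 windows of this length before annotated starts of mouse genes, so the motif is common, and the match is a description of the letters only.

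**Figure D2:**
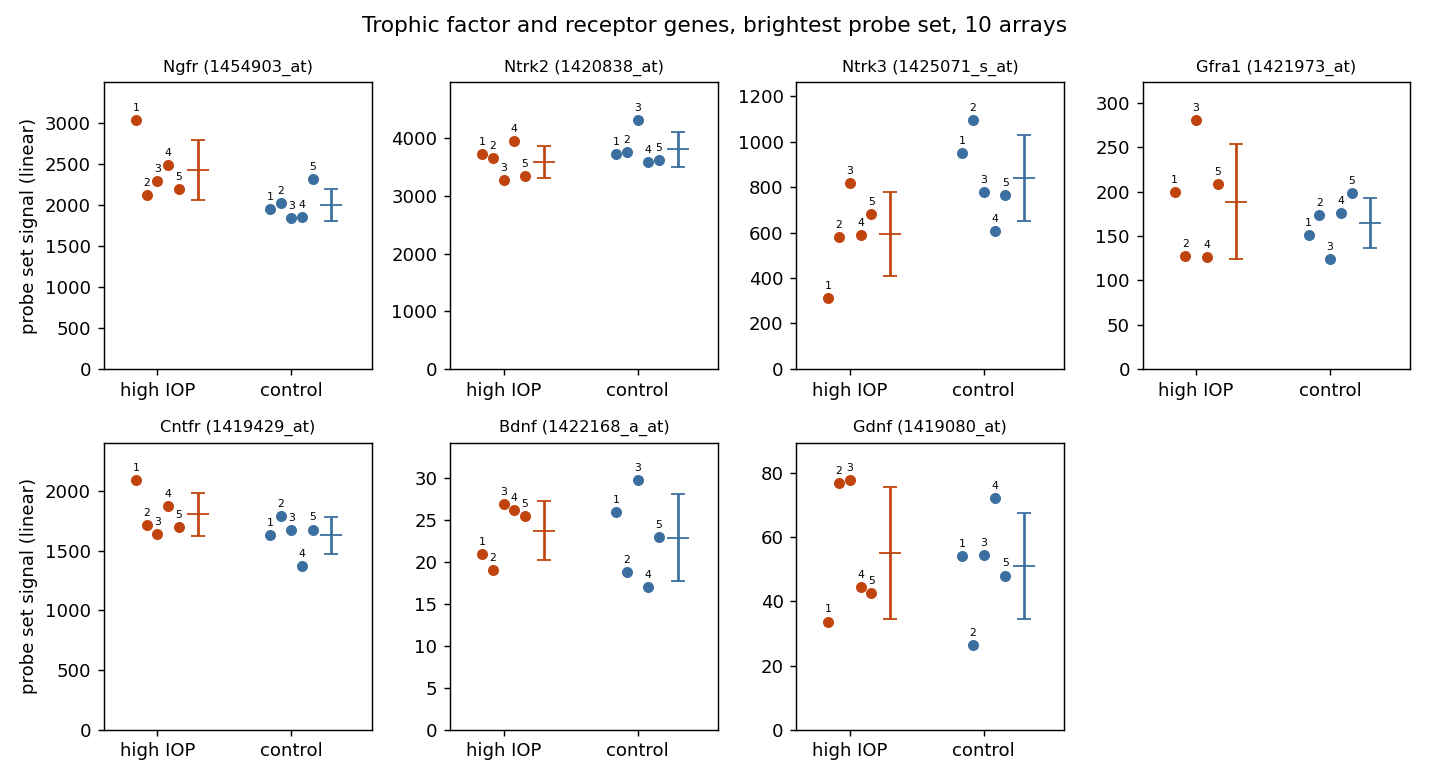
Probe set signal on a linear scale (y axis) in high IOP and control tissue for the brightest probe set of each of the 7 genes, with 1 point per array, numbered by replicate, and a bar for the mean and SD of 5 arrays. The groups overlap in each panel, and high IOP replicate 1 is the highest array for Ngfr and Cntfr and the lowest for Ntrk3.

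Ntrk2 encodes TrkB, which exists as a full-length kinase and as a truncated form that astrocytes express strongly. The deposited annotation does not say which form a probe set detects. Probe set 1420838_at had signals of 3728, 3653, 3276, 3957 and 3343 on high IOP arrays 1 to 5 and of 3728, 3768, 4321, 3590 and 3622 on control arrays 1 to 5. The groups overlapped, with 2 high IOP arrays below every control array and control replicate 3 above the rest. Its log2 fold change was -0.08, with an interval from -0.27 to 0.11 (limma adjusted p 0.842), so that a change beyond 1.5-fold in either direction lay outside the interval.

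The second Ntrk2 probe set, 1420837_at, carries the same source sequence but had another pattern across arrays. It had signals of 86.4, 223, 303, 250 and 262 on high IOP arrays 1 to 5 and of 349, 363, 319, 219 and 272 on control arrays 1 to 5. High IOP replicate 1 was far below every other array, and all 5 high IOP arrays lay below the control median. The log2 fold change was -0.49, with an interval from -1.10 to 0.13 (limma adjusted p 0.837), and it was -0.20 without high IOP replicate 1 and -0.17 with the oligodendrocyte score or -0.05 with the Gapdh ratio as a covariate. Over the 10 arrays the 2 Ntrk2 probe sets had a Pearson r of 0.05 and a Spearman rho of 0.20 (permutation p 0.860 and 0.586, adjusted p over 13 pairs of probe sets of the same gene 1.00 and 0.693). Without the 2 arrays farthest from the median of 1420838_at, r was -0.02.

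Ntrk3 encodes TrkC and was represented by 4 probe sets, all with a log2 fold change below 0. The brightest, 1425071_s_at, had signals of 311, 581, 816, 588 and 682 on high IOP arrays 1 to 5 and of 950, 1097, 778, 608 and 767 on control arrays 1 to 5. The groups overlapped, with 3 high IOP arrays below every control array and high IOP replicate 3 above the control median. The mean signal was 595 ± 185 in high IOP tissue and 840 ± 188 in control tissue (SD, n = 5 each), a log2 fold change of -0.52 (SE 0.238) with an interval from -1.05 to 0.00. The limma p was 0.0508 before adjustment and 0.837 after it, and the two-sided exact permutation p was 0.0873.

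High IOP replicate 1 was again the extreme array. Without it the log2 fold change of 1425071_s_at was -0.31, and it was -0.18 with the Gapdh ratio as a covariate and -0.28 with the oligodendrocyte score as a covariate. The neighbouring probe set 1425070_at, which shares the source sequence, tracked it closely over the 10 arrays (Pearson r 0.985, Spearman rho 0.927, permutation p 2e-05 and 0.00037, adjusted p over 13 pairs 0.00026 and 0.00481, r 0.928 without the 2 farthest arrays). Its log2 fold change was -0.39, with an interval from -0.92 to 0.14, and -0.18 without high IOP replicate 1. These 2 probe sets are not separate support for a difference. Probe sets 1422329_a_at and 1426003_at carry other source sequences and had log2 fold changes of -0.11 (interval -0.37 to 0.14) and -0.09 (interval -0.48 to 0.31).

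The spread within groups differed between probe sets of the same gene. Probe set 1425071_s_at had a within-group SD of 0.42 on the log2 scale, against a median of 0.23 for the 500 probe sets of nearest mean signal, and Ntrk2 1420837_at had 0.50, against 0.27. Ntrk3 1422329_a_at had 0.18, below the median of 0.24 at its signal, and Ntrk2 1420838_at 0.11, below 0.15.

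Gfra1 encodes the receptor that binds GDNF and presents it to RET, and its 2 probe sets had opposite signs. Probe set 1450440_at had signals of 111, 102, 152, 123 and 136 on high IOP arrays 1 to 5 and of 209, 185, 177, 138 and 220 on control arrays 1 to 5. Here 4 of the 5 high IOP arrays lay below every control array, and only high IOP replicate 3 lay above control replicate 4, the lowest control. The mean signal was 125 ± 19.8 in high IOP tissue and 186 ± 32.0 in control tissue (SD, n = 5 each), a log2 fold change of -0.52 (SE 0.136) with an interval from -0.81 to -0.22. The limma p was 0.00302 before adjustment, the 35th smallest of 22626, and 0.837 after it. The two-sided exact permutation p was 0.0159.

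Leaving out 1 array moved this value by less than 1.5 times. It ran from -0.61 to -0.45 when each of the 10 arrays was left out in turn, and it was -0.48 without high IOP replicate 1. With the skeletal muscle score as a covariate, a score that itself went largely with the group, it was -0.36 (limma unadjusted p 0.0853). The lowest value came without control replicate 4 and the highest without high IOP replicate 2.

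The other Gfra1 probe set, 1421973_at, is annotated with the same source sequence. It had signals of 200, 128, 281, 126 and 209 on high IOP arrays 1 to 5 and of 152, 174, 124, 177 and 199 on control arrays 1 to 5. Of the high IOP arrays 3 lay above every control array and the other 2 near the lowest control. The log2 fold change was 0.14, with an interval from -0.32 to 0.59 (limma adjusted p 0.889), and it was -0.01 without high IOP replicate 3. The log2 ratio of 1421973_at to 1450440_at averaged 0.50 on high IOP arrays and -0.16 on control arrays, a difference of 0.65 with a two-sided exact permutation p of 0.0238. It was one of 13 such contrasts between probe sets of a gene, chosen after the values were seen and not adjusted, and is given as a description. The contrast of Ntrk3 1425071_s_at with 1425070_at (-0.13) had a smaller exact permutation p of 0.0159, and that of Ngfr 1454903_at with 1421241_at (0.27) an equal one. The direction of Gfra1 as a gene is not settled by these arrays.

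**Figure D3:**
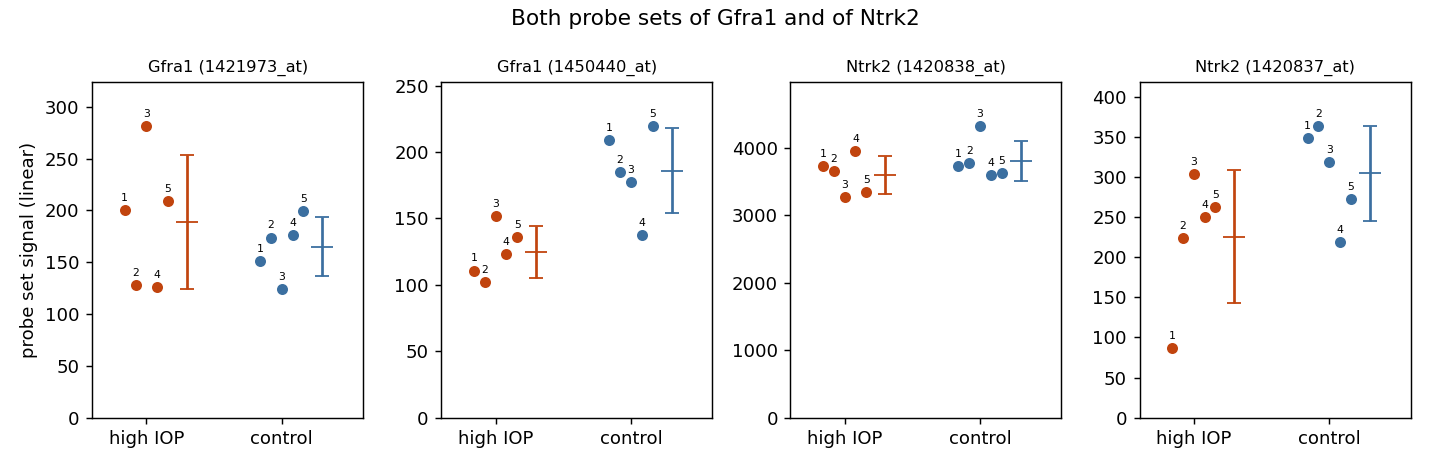
Probe set signal on a linear scale (y axis) for both probe sets of Gfra1 and both of Ntrk2 in high IOP and control tissue, with 1 numbered point per array and a bar for the mean and SD of 5 arrays. Gfra1 1450440_at has 4 high IOP arrays below every control array while 1421973_at has 3 high IOP arrays above every control array, and high IOP replicate 1 is far below the rest for Ntrk2 1420837_at.

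Cntfr encodes the binding subunit for ciliary neurotrophic factor, a factor that astrocytes and Schwann cells make. Probe set 1419429_at had signals of 2091, 1715, 1644, 1876 and 1703 on high IOP arrays 1 to 5 and of 1634, 1792, 1674, 1377 and 1679 on control arrays 1 to 5. The groups overlapped, with 2 high IOP arrays above every control array and 4 of 5 above the control median. The log2 fold change was 0.15, with an interval from -0.07 to 0.36 (limma adjusted p 0.837). It was 0.091 without high IOP replicate 1, the highest array, 0.086 without control replicate 4, the lowest, and 0.041 with the Gapdh ratio as a covariate. The dim probe set 1431663_a_at had a log2 fold change of -0.16, with an interval from -0.57 to 0.25, and averaged 52.1 ± 18.7 in high IOP tissue and 58.7 ± 12.2 in control tissue.

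The ligands were dim. The first Bdnf probe set, 1422168_a_at, ranged from 19.0 to 26.9 on high IOP arrays (median 25.5) and from 17.0 to 29.7 on control arrays (median 23.0). The second, 1422169_a_at, ranged from 11.7 to 31.4 on high IOP arrays and from 14.2 to 33.9 on control arrays. Both lie near the 16 added before the log, and without detection calls it is not known whether they were above background. Their log2 fold changes were 0.04 (interval -0.20 to 0.28) and 0.02 (interval -0.37 to 0.41). Gdnf ranged from 33.7 to 77.7 on high IOP arrays (median 44.4) and from 26.4 to 72.2 on control arrays (median 54.3), a log2 fold change of 0.07 with an interval from -0.42 to 0.57. For Gdnf the value depended on the covariate: it was 0.30 with the Gapdh ratio and 0.59 with the skeletal muscle score (limma unadjusted p 0.0340, adjusted p 1). The skeletal muscle score ran from -0.055 to 0.171 on high IOP arrays and from -0.159 to 0.006 on control arrays. It thus went largely with the group, and some of its markers were dim (Ckm averaged 9.05 and 4.10 in high IOP and control tissue). The value of 0.59 is therefore not a Gdnf change corrected for muscle content. Without a covariate no difference was detected in either ligand, and at this signal a modest one could have been missed.

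Bdnf is known as a target of the transcription factor CREB, so the upstream windows of the 2 ligands that hold the CREB half-site CGTCA or its reverse complement TGACG (both strands searched) are shown, with that motif in capitals. The Bdnf window is 1 of 7 given for the gene and lies at chr2:109692186-109692435, and the Gdnf window is 1 of 2 and lies at chr15:7809798-7810047, both on the plus strand of GRCm38.p6 (RefSeq).
Bdnf: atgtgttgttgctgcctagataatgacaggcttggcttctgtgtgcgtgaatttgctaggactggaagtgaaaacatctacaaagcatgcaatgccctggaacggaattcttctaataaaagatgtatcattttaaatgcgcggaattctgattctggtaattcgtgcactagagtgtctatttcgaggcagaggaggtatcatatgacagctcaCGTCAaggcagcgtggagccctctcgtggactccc
Gdnf: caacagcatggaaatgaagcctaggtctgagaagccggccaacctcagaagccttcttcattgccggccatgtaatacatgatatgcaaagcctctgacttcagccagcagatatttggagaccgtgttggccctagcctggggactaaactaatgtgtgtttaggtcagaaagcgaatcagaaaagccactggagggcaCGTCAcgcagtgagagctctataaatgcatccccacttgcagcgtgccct
Each window holds 1 half-site, and 17.8% of the 32851 windows hold at least 1. A match is a description of the letters only.

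Among the brightest probe sets of the 7 genes, no pair was correlated over the 10 arrays after adjustment over 21 pairs. Ntrk2 and Gfra1 had the most negative value (Pearson r -0.81, Spearman rho -0.79, permutation p 0.005 and 0.0085, adjusted p 0.0888 and 0.179). It was -0.63 without the 2 arrays farthest from the Ntrk2 median, and -0.81 within high IOP arrays and -0.89 within control arrays. This relation is between 1 probe set of each gene. The 2 probe sets of Gfra1 had a Pearson r of 0.12 with each other, and those of Ntrk2 0.05. Ngfr and Cntfr had the most positive value (Pearson r 0.79, Spearman rho 0.66, permutation p 0.00846 and 0.0440, adjusted p 0.0888 and 0.308), and it was 0.69 without the 2 farthest arrays, 0.60 without high IOP replicate 1, 0.93 within high IOP arrays and 0.42 within control arrays. Ngfr and Ntrk3 stood at -0.71 (Spearman rho -0.48, permutation p 0.0284 and 0.167, adjusted p 0.199 and 0.650), but at -0.27 without that array and also without the 2 farthest arrays. Within groups it was -0.84 in high IOP and 0.19 in control arrays.

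Over 91 relations between the 7 genes and 13 cell type scores, 0 passed the permutation test after adjustment. Each array's score averages, over the markers of a list, the log2 deviation from the marker's mean across arrays. Ngfr was lower where the oligodendrocyte score was higher (Pearson r -0.87, Spearman rho -0.75, permutation p 0.00317 and 0.0174, adjusted p 0.152 and 0.753). The r was -0.65 without high IOP replicate 1, -0.53 without the 2 farthest arrays, -0.99 within high IOP arrays and -0.59 within control arrays. Ntrk3 went the other way (Pearson r 0.78, Spearman rho 0.48, permutation p 0.0173 and 0.165, adjusted p 0.524 and 0.799), with r of 0.35 without high IOP replicate 1, 0.38 without the 2 farthest arrays, 0.90 within high IOP arrays and 0.30 within control arrays. These relations were not particular to the oligodendrocyte score. Ngfr had a Pearson r of -0.84 with the oligodendrocyte precursor score (permutation p 0.00333, adjusted p 0.152) and of -0.72 with the microglia and macrophage score. Ntrk3 had 0.69 and 0.55 with these scores and -0.63 with the skeletal muscle score. The oligodendrocyte score ran from -0.81 to 0.19 on high IOP arrays and from -0.16 to 0.39 on control arrays. Its part in the Ngfr and Ntrk3 values was not tested beyond the covariate given above. Ntrk2 had an r of 0.65 with the astrocyte score (Spearman rho 0.54, permutation p 0.0436 and 0.115, adjusted p 0.555 and 0.753), of 0.70 without high IOP replicate 1, 0.68 without the 2 farthest arrays, 0.56 within high IOP arrays and 0.69 within control arrays.

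**Figure D4:**
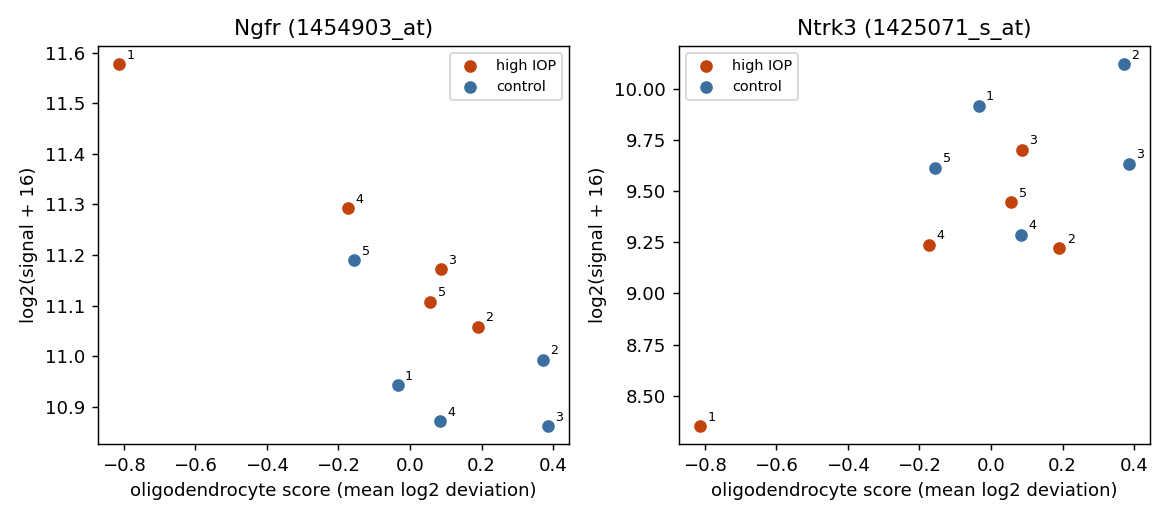
Log2(signal + 16) of the brightest Ngfr and Ntrk3 probe sets (y axes) against the oligodendrocyte score, the mean log2 deviation of 7 markers (x axes), with 1 point per array, numbered by replicate, for high IOP and control tissue. High IOP replicate 1 lies alone at a score of -0.81, with the highest Ngfr and the lowest Ntrk3 value.

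The genes whose pattern over the 10 arrays was most like the brightest probe set of each gene were ranked by Pearson r. They were taken from 9233 or 9234 genes with a mean signal of at least 100, as a description with no test. For Ngfr they were Nr2f1, Tcf7l1 and Ephb3 (r 0.969, 0.969 and 0.959), for Ntrk2 Me1, Lrrc61 and Bid (0.943, 0.909 and 0.898), and for Ntrk3 Letmd1, Cnih1 and Ulk2 (0.977, 0.974 and 0.971). For Cntfr they were Safb2, Elmo2 and Ift122 (0.978, 0.957 and 0.949), and for Gfra1 Bet1l, Angpt1 and Thap2 (0.885, 0.883 and 0.871). For the dim Bdnf and Gdnf they were Thoc6, Vps18 and Lyl1 (0.905, 0.882 and 0.836) and Slc30a1, Pawr and Rrp15 (0.901, 0.863 and 0.850). They are the top of a long ranking, and no p is given.

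The rest of the trophic pathways was read at the brightest probe set of each gene, and 0 of 63 further genes passed the test. Their log2 fold changes were above 0 for 29 and below for 34 (median -0.02), where 45.3% of all probe sets were above 0. Before adjustment 2 of the 63 had a p under 0.05 with a higher and 1 with a lower value, where 2.33% and 2.11% of all probe sets did. Among co-receptors, Sort1, which encodes sortilin and binds neurotrophin precursors together with p75, stood at 0.04 (interval -0.19 to 0.26), but its other probe sets at -0.19 and -0.19. Sorl1 and Sorcs1, relatives of sortilin, stood at -0.14 and -0.06, Sorcs2 and Sorcs3 at 0.11 and 0.14, and Lingo1 and Rtn4r, which form a complex with p75 on axons, at 0.26 (interval -0.42 to 0.94) and 0.24 (interval -0.09 to 0.57). For Sorcs3 the other probe set had the opposite sign (-0.25). Both Sorcs3 probe sets were dim, with means of 22.4 and 7.69 in high IOP and of 18.9 and 12.5 in control tissue.

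Of the GDNF family, Ret, the shared signalling kinase, stood at 0.00 (interval -0.28 to 0.29). The other ligands Nrtn, Artn and Pspn stood at 0.22, -0.05 and -0.04. Artn was dim, with means of 14.2 in high IOP and 15.4 in control tissue. The receptors Gfra2, Gfra3 and Gfra4 had values of -0.10, 0.08 and -0.03. Ncam1, an adhesion protein that can bind GDNF in place of RET, stood at -0.07 on its brightest probe set, with 3 of its other 5 above 0. Gas1 and Sdc3 stood at -0.20 and -0.00. Other probe sets of Sdc3 stood at -0.45 (limma unadjusted p 0.0188) and, for a dim one, at 0.03.

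Of the ciliary neurotrophic factor family, the shared receptor chains Il6st and Lifr stood at 0.04 (interval -0.15 to 0.22) and -0.07 (interval -0.32 to 0.18). Other probe sets of Il6st stood at -0.21 and -0.37, and of Lifr at -0.35 and 0.15. The Lifr probe set at -0.35 had a limma unadjusted p of 0.00294. It was dim, with means of 31.4 in high IOP and 44.3 in control tissue. Osmr and Il6ra stood at 0.13 and 0.30, where another probe set of each was below 0 (-0.17 and -0.19). The ligands Lif, Clcf1, Ctf1, Il6 and Il11 had values of 0.16, 0.25, -0.12, 0.00 and 0.36. The interval of Clcf1 ran from -0.81 to 1.31, which includes a 2-fold higher level, and its other probe sets stood at 0.04 and -0.16.

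Of 26 adaptors and kinases that carry these signals, 9 stood above 0 and 17 below, where 45.3% of all probe sets stood above 0. The 3 with the smallest p were Irak1, a kinase that p75 signals through (0.28, limma unadjusted p 0.0255), Map2k2, a kinase of the Ras pathway (0.26, unadjusted p 0.0447), and Jak1, the kinase bound to gp130 (-0.36, unadjusted p 0.0490). The limma adjusted p was 0.837 for each. The groups did not overlap for Irak1, with every high IOP array above every control array, as groups did not for 0.663% of all probe sets. Irak1 was picked for its small p, and its value without high IOP replicate 1 or with the Gapdh ratio as a covariate was not looked at. All 4 Irak1 probe sets and both of Map2k2 were above 0, while 1 of the 3 of Jak1 was above 0 as well (0.27). Of 11 genes for the processing of trophic factors 5 were above 0 and 6 below, and those with the smallest p were Pcsk5, a proprotein convertase (0.29, unadjusted p 0.197), Hap1, which has a role in BDNF transport (0.15, 0.437), and Pcsk6, another convertase (-0.10, 0.439). For Pcsk5 other probe sets stood at -0.36, -0.01 and 0.05.

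**Figure D5:**
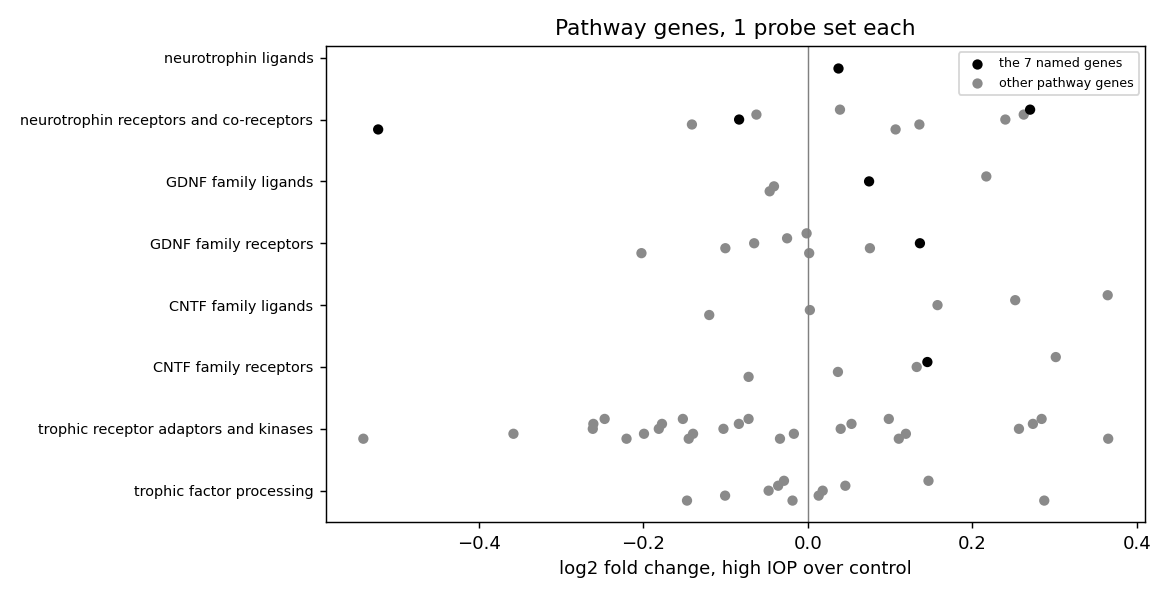
Log2 fold change of high IOP over control (x axis) for each measured gene of 8 trophic pathway lists (y axis), 1 probe set per gene, with black points for the 7 genes described here and grey points for the other 63. The values run from -0.54 to 0.36, and none passed the test after adjustment.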

How the data were processed

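Gene expression was measured on 10 arrays of optic nerve head RNA, 5 of high IOP and 5 of control tissue. Per the labels' protocols, RNA came from RNeasy Plus Micro columns and went through Ovation amplification and biotin labelling. The authors deposited 1 table of linear intensity per probe set, from 0.69 to 20168. How probes were summarised, background-corrected and normalized was not given in the sources used here.

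Of 22690 probe sets, 64 were array controls and left out. The other 22626 were put on the scale log2(signal + 16) and fitted with limma 3.58.1 (R 4.3.3, lmFit and eBayes), high IOP minus control, without covariates, with Benjamini-Hochberg adjustment over all 22626. The genes and lists were chosen with earlier results of these data known. Named were all probe sets of the 7 genes, all measured ligands and receptors of the pathway lists, 3 genes with the smallest p of the adaptor and processing lists, and 3 genes of most like pattern. Correlations used 100000 permutations (Python 3.11.15, NumPy 2.4.6, SciPy 1.17.1, pandas 2.3.3). Contrasts of probe sets of a gene were added after seeing the data. The fit was tested on simulated data. It recovered 29.4% of probe sets given a log2 change of 0.5 and 80.4% of those given a change of 1. Alternatives covered scaling, filters, variance, replicate block, covariates and each array left out. The labels give equal replicate numbers in both groups without saying that they are the same mice.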

Additional observations from a re-analysis of the deposited data

Results flagged for a closer look

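Of 32 groups of 5 arrays tested with Dixon's ratio, 2 held an array far from the other 4, where chance alone would give about 1.6. Ntrk2 1420837_at was lowest on high IOP replicate 1, at a signal of 86.4, where the other high IOP arrays had 223 to 303. That array also had the lowest oligodendrocyte score (-0.81) and the highest Gapdh ratio (2.07). The log2 fold change of this probe set was -0.49, and it was -0.17 with the score and -0.05 with the ratio as a covariate. Ntrk2 1420838_at was highest on control replicate 3, at a signal of 4321, where the other control arrays had 3590 to 3768.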

How the results depend on the processing

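No probe set of the 7 genes passed the limma test after adjustment under any alternative, with a lowest adjusted p of 0.541. Beside leaving out arrays, 13 alternatives gave 192 values for these probe sets, of which 7 turned sign, on 4 probe sets. Ngfr 1421241_at (-0.00) was 0.0022 after quantile normalization, 0.016 with equal array medians, 0.0056 with the photoreceptor score and 0.073 with the skeletal muscle score as a covariate. Ntrk3 1422329_a_at was 0.060 with the muscle score, Ntrk3 1426003_at 0.015 with the photoreceptor score and Cntfr 1431663_a_at 0.039 with array weights. The cause was not tested. With each array left out in turn, Ngfr 1421241_at ran from -0.064 to 0.048, Ntrk3 1426003_at from -0.19 to 0.016, Gfra1 1421973_at from -0.013 to 0.25, Bdnf 1422168_a_at from -0.020 to 0.097, Bdnf 1422169_a_at from -0.071 to 0.13 and Gdnf from -0.081 to 0.19.

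The count of the 16 probe sets at an unadjusted p under 0.05 was 1 in place of 2 with the brightest probe set per gene, the fixed replicate block, and the oligodendrocyte, muscle or Gapdh covariate. The one left was Ngfr 1454903_at with the brightest per gene, Gfra1 1450440_at with the block and with the oligodendrocyte or Gapdh covariate, and with the muscle score neither of these but Gdnf (0.59, unadjusted limma p 0.0340). The brightest per gene leaves out Gfra1 1450440_at, so the lower count there came from the choice of probe sets. The count was 3 with quantile normalization, equal array medians or trended variance, where Ntrk3 1425071_s_at joined, and with array weights Ntrk3 1425071_s_at took the place of Ngfr. It ran from 1 (without high IOP replicate 1) to 3 (without high IOP replicate 3) with arrays left out, and was also 1 without high IOP replicate 4 or control replicate 1, 2 or 3. Over all probe sets that count was 495 with the brightest per gene, which tests fewer, 658 with the oligodendrocyte score, 622 with the muscle score and 633 with the Gapdh ratio, against 1004. It ran from 739 (without control replicate 2) to 2017 (without high IOP replicate 3). Between 0 and 1 of the 21 gene pairs passed with an array left out. Deviations of arrays with equal replicate numbers had an r of -0.05, 0.18, -0.08, 0.13 and -0.06, against a median of -0.01 for unlike numbers. Of 5 high IOP arrays, 2 correlated best with their own number. So few values cannot show whether the arrays are paired. With the numbers as a fixed block the unadjusted p of Ngfr 1454903_at was 0.0715. Dim probe sets such as those of Bdnf have no detection call.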
